A study of Rattus norvegicus with 30 samples.

Results

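The Drd4 locus was taken as the methylated regions within 100 kb on either side of a site near the start of Drd4, on chromosome 1 of the rat genome build Rn6. Peaks of the 30 libraries were merged where they shared at least 1 bp, and a merged region belonged to the locus when at least 2 libraries had a called peak in it. This gave 38 regions, of 442206 across the genome that met the same minimum. The central region, called the Drd4 site here, is 516 bp long (chr1:214277533-214278048), and the study's annotation places it in the promoter window upstream of the Drd4 transcription start. It was chosen by its measured difference of both PAE and PF animals from CON animals in these same libraries, so its values by group are a description and carry no test. The other 37 regions were chosen by position and by the number of libraries with a peak, without regard to group.

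Drd4 encodes the dopamine D4 receptor, a receptor coupled to inhibitory G proteins that lowers cyclic AMP when dopamine binds, and the PFC is among the brain areas where it is expressed. DNA methylation (DNAm) is the addition of a methyl group to cytosine, mostly where a guanine follows, and methylation around a gene's start often goes with low transcription of that gene. In meDIP-seq an antibody pulls down methylated fragments, so a peak marks a stretch of DNA where such fragments were enriched. The method gives a relative height and not the share of methylated molecules, and no expression values were used here.

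The libraries came from the PFC of Sprague-Dawley rats at postnatal day 22, with 10 animals in each of 3 prenatal groups. PAE animals were born to dams given a liquid diet containing ethanol during gestation, PF animals to dams given the liquid control diet in the amount that an alcohol-fed partner ate, and CON animals to dams with free access to the same control diet as pellets. The 15 dams, 5 per group, each gave 1 pup labelled female and 1 labelled male. PF dams therefore differed from CON dams in the amount and the form of food, and PAE dams in these and in ethanol. PAE dams had free access to their diet, whereas the paper describes hunger and a disrupted feeding schedule in PF dams. PAE and PF thus differed in more than ethanol.

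Peaks on the sex chromosomes went against the labelled sex in 18 of the 30 libraries. Of 23 libraries with 38 to 87 peaks on chromosome Y, 13 were labelled female, and of 7 libraries with 4 to 11 such peaks, 5 carried the male label. The text keeps to the labels. Whether the labels of group and dam hold for these libraries was not tested. Between 11548314 and 16555049 fragments per library remained after filtering. The height of a region in a library was the highest pileup of its peak per 1000000 filtered fragments, and a library without a called peak, or with a peak below a floor of 0.438, was set to that floor, which corresponds to 5.06 to 7.26 fragments. For a library without a called peak the coverage is not known, so the size of a difference from such a library depends on the floor. Autosomal peaks numbered 151576 ± 26759 in CON, 143998 ± 19297 in PF and 135828 ± 26494 in PAE libraries (SD, n = 10 each).

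At the Drd4 site, a peak was called in 8 of 10 CON, 5 of 10 PF and 1 of 10 PAE libraries. Height was 1.05 ± 0.427 in CON, 0.584 ± 0.185 in PF and 0.531 ± 0.292 in PAE animals (SD, n = 10 each). CON heights ran from the floor to 1.85 with a median of 1.10, PF heights from the floor to 0.878 with a median of 0.475, and PAE heights from the floor to 1.36 with a median at the floor. The order of the means was therefore CON, PF, PAE, and the PF and PAE means lay closer together than 1 SD of either. The groups overlapped, because 2 CON libraries were at the floor and PAE replicate 2 stood at 1.36, above 6 of the 8 CON libraries with a peak. That library had 192712 peaks, against 105528 to 157137 in the other PAE libraries. With labelled sex and lane in the model, the fitted log2 difference was −1.05 (standard error 0.257) for PAE minus CON, −0.78 (standard error 0.267) for PF minus CON and −0.27 (standard error 0.258) for PAE minus PF. The last ranged from −0.43 to −0.19 with 1 library removed and was −0.15 with peaks at a q-value under 0.01.

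The peaks themselves were moderate in size. In the 14 libraries with a call, the pileup at the summit was 7 to 23 fragments, the fold enrichment 3.73 to 7.90 and the −log10 q-value 2.60 to 13.9. Their summits fell between 214277809 and 214277905, and the peaks were 263 to 441 bp long, so all 14 marked one place. Among the called libraries alone, height was 0.776 to 1.85 in the 8 CON and 0.513 to 0.878 in the 5 PF libraries. Just above the floor, the lowest call was that of PF replicate 6, with 7 fragments.

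In CON, the pups of a dam shared the presence or absence of the peak. Both pups had it in 4 of 5 CON dams and neither in the remaining dam, that of CON replicates 3 and 8. In PF, both pups had it in 1 dam, 1 pup in 3 dams and neither in 1 dam. In PAE, 1 pup had it in 1 dam and neither in 4 dams.

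The lanes did not hold the groups evenly, since lane 4 had no PF library and lane 7 no PAE library. On lane 4, the site was called in 2 of 3 CON and 0 of 2 PAE libraries. Lane 5 gave calls in the 1 CON, in 1 of 4 PF and in 0 of 2 PAE libraries. On lane 6, calls were made in the 1 CON, in 3 of 3 PF and in 0 of 3 PAE libraries. Lane 7 had 2 of 3 CON and 1 of 2 PF libraries with the peak, and lane 8 had 2 of 2 CON, 0 of 1 PF and 1 of 3 PAE libraries. On each of the 4 lanes that held both, the CON share was above the PAE share, whereas the PF share equalled the CON share on lane 6. These shares split the values on which the site was chosen, with few libraries each, so they are a description and no support. The number of autosomal peaks moved in the same order as the site, and with it as a covariate, an alternative chosen after seeing the data, the fitted log2 difference was −0.90 for PAE minus CON and −0.72 for PF minus CON. In whole tissue, a lower height cannot tell a change within cells from a change in the mixture of cells.

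The neighbouring regions did not all share the pattern of the site. On the lower-coordinate side, the nearest region (chr1:214270559-214271383, 6149 bp away) was called in 8 CON, 8 PF and 9 PAE libraries. Its heights had medians of 0.736 in CON, 0.683 in PF and 0.752 in PAE animals, each running from the floor to 0.964, 1.31 and 1.36, and the groups overlapped over most of their range. PAE minus CON was 0.11 on the log2 scale (95% interval −0.32 to 0.53, unadjusted p = 0.619 by limma), and from 0.014 to 0.20 with 1 library removed. It was 0.043 with peaks at a q-value under 0.01, 0.22 with quantile normalization and 0.53 with libraries without a peak at 0 and a pseudocount of 0.1. The difference for PF minus CON was −0.07 (95% interval −0.51 to 0.37). Whether this or any other region of the locus differed less between the groups than the site was not tested, since the site was chosen on its difference.

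On the higher-coordinate side, the nearest region (chr1:214283396-214284002, 5347 bp away) was called in 5 CON, 3 PF and 1 PAE libraries, the same order of calls as at the site. Its median was at the floor in all 3 groups, with highest values of 1.12, 1.03 and 0.749. PAE minus CON was −0.26 on the log2 scale (95% interval −0.60 to 0.08, unadjusted p = 0.129 by limma), and PF minus CON was −0.10 (95% interval −0.45 to 0.26). The PAE value was −0.16 with quantile normalization, −0.16 with the number of peaks as a covariate and −0.68 with libraries without a peak at 0 and a pseudocount of 0.1, and ranged from −0.30 to −0.14 with 1 library removed. It had the highest correlation with the site of the 33 other regions tested (Pearson r = 0.55 over 30 libraries, as a description, with many libraries at the floor in both).

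The next region (chr1:214290010-214290383, 11961 bp away) was called in 7 CON, 3 PF and 1 PAE libraries. CON heights ran from the floor to 0.922 with a median of 0.723, while the PF and PAE medians were at the floor and the highest values were 0.991 and 0.788. PAE minus CON was −0.61 on the log2 scale (standard error 0.204, 95% interval −1.03 to −0.20, unadjusted p = 0.0053, adjusted p = 0.661 by limma). For PF minus CON it was −0.44 (standard error 0.212, 95% interval −0.87 to −0.0040, unadjusted p = 0.048, adjusted p = 0.773 by limma). Lower values in PAE and in PF were thus seen here too at the unadjusted threshold, though not after adjustment over all tested regions. The PAE value kept an unadjusted p under 0.05 in all 13 alternatives, where it ran from −2.42 to −0.40, and in all 30 fits with 1 library removed (−0.70 to −0.55). The PF value kept it in 7 of 13 (−1.73 to −0.28) and in 10 of 30 (−0.51 to −0.35), with an unadjusted p of up to 0.159, with quantile normalization. The most negative value of each came with libraries without a peak at 0 and a pseudocount of 0.1.

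Further along the same side the order changed from region to region. The region 13481 bp away (chr1:214291530-214292061) was called in 8 CON, 8 PF and 7 PAE libraries, with a log2 difference of 0.12 between PAE and CON. That at 21537 bp (chr1:214299586-214299955) was called in 0 CON, 3 PF and 4 PAE libraries, the opposite order to the site, with a log2 difference of 0.13 (unadjusted p = 0.39 by limma). At 23936 bp (chr1:214301985-214302650) calls were made in 8 CON, 2 PF and 2 PAE libraries. Its log2 difference was −0.39 between PF and CON (standard error 0.163, unadjusted p = 0.022, adjusted p = 0.773 by limma) and −0.25 between PAE and CON (standard error 0.157, unadjusted p = 0.116). The PF value was −0.18 (unadjusted p = 0.0901) when a peak had to cover at least 50% of the region, −0.22 (unadjusted p = 0.0916) with median ratio scaling and −0.23 (unadjusted p = 0.128) with quantile normalization. It was −0.54 (unadjusted p = 0.0170) with each library's own floor and −2.24 (unadjusted p = 0.0014) with the pseudocount, and ran from −0.49 to −0.30 with 1 library removed, with an unadjusted p under 0.05 in all 30 fits.

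The other near regions on the lower-coordinate side held few peaks. Those starting at 214262305, 214259746 and 214256533 were called in 3, 6 and 4 libraries, with log2 differences of −0.19, −0.14 and 0.12 between PAE and CON. The region at 214258829 and, on the higher-coordinate side, that at 214300354 were called in 2 libraries each and were too sparse for the fit, which took regions called in at least 3 libraries.

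Over the 33 other regions of the locus that entered the fit, 24 had a lower and 9 a higher fitted value in PAE than in CON animals, with a median log2 difference of −0.15. Counted as lower were the regions at 214360209 (−0.0076) and 214370588 (−0.0032), where all CON and PAE libraries were at the floor. Their sign does not come from heights in those groups. The regions at 214234283, 214235280, 214262305 and 214360986 had no PAE peak and reached the minimum of 3 libraries only with their CON calls. Their lower sign carries no support, and the median is the value at 214234283. On the higher side, the regions at 214256533 and 214341210 reached the minimum only with their PAE calls. Over all 352026 tested autosomal regions 63.3% of the nonzero differences were lower and the median was −0.05. For PF minus CON, 23 were lower and 10 higher with a median of −0.07, against 57.6% lower and a median of −0.03 over all tested regions. The medians depended on the scaling. For PAE minus CON that of the 33 regions was −0.059 with quantile normalization and −0.068 with median ratio scaling, against −0.0076 and −0.016 over all tested regions, and for PF minus CON −0.024 and −0.044, against −0.0022 and −0.0089. Between PAE and PF, 17 were lower and 16 higher with a median of −0.021, against 56.4% lower and a median of −0.023 over all tested regions. The 9 tested regions within 25 kb of the site had a median log2 difference of −0.14 between PAE and CON, with 5 lower and 4 higher, and the 24 farther away −0.16, with 19 lower and 5 higher. By calls, the 37 regions held 151 peaks in CON, 131 in PF and 120 in PAE libraries, the same order as the mean number of autosomal peaks per library given above.

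At an unadjusted p under 0.05, 4 of the 33 regions differed between PAE and CON by limma, 3 of them lower in PAE, where 7.37% of all tested regions passed the same threshold. Between PF and CON 2 of 33 passed, both lower in PF, against 6.46% of all tested regions, and between PAE and PF 2 of 33 passed, 1 in each direction, against 4.46%. The region counted as higher in PAE was that at 214341210 in both contrasts. It entered the fit only through its PAE calls, so its direction carries no support. The smallest adjusted p among the 33 regions was 0.661 for PAE versus CON, 0.773 for PF versus CON and 0.988 for PAE versus PF, so none of the 33 passed an FDR of 0.05 in these contrasts. Across the autosomes that threshold was passed by 1 region (0.000284%) between PAE and CON and by 0 regions (0%) in each of the other contrasts, with 25957, 22734 and 15684 regions at the unadjusted threshold for PAE versus CON, PF versus CON and PAE versus PF. Of the 25957, 81.8% were lower in PAE, a share that was 57.0% with quantile normalization, 66.1% with median ratio scaling and 58.0% with the number of peaks as a covariate. For PAE versus PF the share lower in PAE was 66.2% and became 50.1%, 53.8% and 47.1%, and for PF versus CON the share lower in PF was 68.1% and became 57.3%, 63.0% and 61.2%.

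The other regions that passed the unadjusted threshold lie far from the site. The region at chr1:214185763-214186238 was called in 8 CON, 9 PF and 6 PAE libraries, with medians of 0.875, 0.875 and 0.455. Its log2 difference was −0.45 between PAE and CON (standard error 0.208, unadjusted p = 0.0378, adjusted p = 0.670 by limma) and −0.46 between PAE and PF (standard error 0.209, unadjusted p = 0.0349, adjusted p = 0.988), while PF minus CON was 0.0083. With libraries without a peak at 0 and a pseudocount of 0.1, these contrasts with PAE were −0.76 (unadjusted p = 0.206) and −0.82 (unadjusted p = 0.175). With 1 library removed they ranged from −0.62 to −0.34 and from −0.54 to −0.39, and the unadjusted p was under 0.05 in 21 and 20 of 30 fits. The region at chr1:214348084-214348863 was called in all 10 CON, 9 PF and 8 PAE libraries. Its heights were 0.840 to 1.72 in CON, with a median of 1.24, and reached down to the floor in PF (median 1.15) and PAE (median 0.905). PAE minus CON was −0.50 on the log2 scale (standard error 0.230, unadjusted p = 0.0372, adjusted p = 0.669 by limma). It was −0.07 (unadjusted p = 0.838) when a peak had to cover at least 50% of the region, and the unadjusted p was under 0.05 in 8 of 13 alternatives and in 23 of 30 fits with 1 library removed. In the opposite direction, the region at chr1:214341210-214341630 was called in 1 CON, 0 PF and 4 PAE libraries, with a log2 difference of 0.27 between PAE and CON (standard error 0.106, unadjusted p = 0.0166, adjusted p = 0.661 by limma) and 0.32 between PAE and PF (standard error 0.106, unadjusted p = 0.0049, adjusted p = 0.988). Without PAE replicate 1 these values were 0.17 and 0.17, with peaks at a q-value under 0.01 they were 0.16 and 0.19, and with the pseudocount 1.25 and 1.43. The unadjusted p was under 0.05 for both in all 13 alternatives and in all 30 fits with 1 library removed. Because the region entered the fit through its PAE calls, with every PF library at the floor, this does not show a stable difference.

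The 38 regions varied widely in how many libraries carried them. The shortest spanned 285 bp and the longest 1176 bp (median 466.5 bp), and 0 of them were called in all 30 libraries. In 4 regions at least 24 libraries had a peak, in 13 between 10 and 23, in 10 between 4 and 9, in 7 exactly 3 and in 4 exactly 2. The highest medians over all libraries belonged to the region at 214348084, to that at chr1:214245497-214246503 and to that at chr1:214338745-214339233. The second of these, 31029 bp from the site, was called in 9 CON, 9 PF and 10 PAE libraries, with medians of 1.16, 0.938 and 0.936 and a highest value of 2.40 in CON. The third was called in 8 CON, 6 PF and 5 PAE libraries, with medians of 1.01, 0.795 and 0.71. Both had ranges that overlapped between the groups, and unadjusted p-values between PAE and CON of 0.256 and 0.366 by limma. Just inside the minimum of 2 libraries, the 4 regions had heights of 0.511 to 0.866, with 4 calls in CON, 2 in PF and 2 in PAE libraries. Just outside it, 24 further merged regions of the window were called in a single library, 9 of them in CON, 4 in PF and 11 in PAE, with heights of 0.369 to 1.23. The nearest of these lay 803 bp from the site on the higher-coordinate side, in 1 PF library, and 2796 bp from it on the other side, in 1 PAE library.

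The labelled sexes did not differ detectably at the Drd4 site, a comparison that played no part in its choice. Peaks were called in 7 of 15 libraries of each labelled sex. In CON 4 of 5 libraries labelled female and 4 of 5 labelled male had one, in PF 2 and 3, and in PAE 1 and 0. Mean height was 0.733 ± 0.375 in the libraries labelled female and 0.709 ± 0.412 in those labelled male (SD, n = 15 each). The log2 difference, labelled male minus female, was −0.02 (95% interval −0.43 to 0.39, unadjusted p = 0.915, adjusted p = 0.992 by limma). When the number of chromosome Y peaks took the place of the label, chosen after seeing the data, the difference between libraries with many and with few such peaks was 0.57 (standard error 0.313, unadjusted p = 0.0769, adjusted p = 0.790 by limma). The 7 libraries with few such peaks were 2 CON, 4 PF and 1 PAE, all on lanes 5 and 7, so this pattern is uneven over lanes and groups. The site was called in 2 of these 7 and in 12 of the 23 others.

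Among the 33 other regions, 3 differed between the labelled sexes at an unadjusted p under 0.05, against 5.12% of all tested regions, and the smallest adjusted p was 0.854. The one with the highest values, at 214245497, had a log2 difference of −0.53 for labelled male minus female (standard error 0.193, unadjusted p = 0.0103, adjusted p = 0.854 by limma). This fit did not compare pups within dams. Within dams, the library labelled male was the lower there except for PAE replicates 4 and 9 and PF replicates 2 and 7. The others that passed were at 214179682 (−0.28, unadjusted p = 0.0149 by limma) and, in the opposite direction, at 214262305 (0.17, unadjusted p = 0.0277 by limma). The region at 214179682 reached the minimum of 3 libraries only with its calls in libraries labelled female. That at 214262305 was called only in libraries labelled male. The direction of these regions therefore carries no support. For the interaction of labelled sex with group, 0 of the 33 regions had an unadjusted p under 0.05 by limma, where 3.84% of all tested regions had one.

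By the likeness of log2 heights over the 30 libraries, the regions of the locus closest to the site were those at 214283396, at chr1:214184728-214185463 (r = 0.50) and at 214301985 (r = 0.50). Over all 33 regions r had a median of 0.20 and went down to −0.32, and its median over 154993 regions elsewhere called in at least 10 libraries was 0.17. The 5 most like it elsewhere were chr2:32778133-32779706 (r = 0.83), chr6:132688383-132688809 (r = 0.83), chr11:84539569-84540638 (r = 0.81), chr16:20921380-20921993 (r = 0.80) and chr11:16865380-16865737 (r = 0.80). They had a peak in 7, 7, 9, 9 and 7 CON libraries, in 4, 2, 4, 2 and 2 PF libraries and in 1, 1, 4, 2 and 1 PAE libraries. These regions share libraries, depth and the floor with the site, and were picked from many as the highest values of r.

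Of 13 dopamine genes considered beside Drd4 (receptors, enzymes of dopamine synthesis and breakdown, transporters and signalling partners), the study's tables of regions place 2 on Rn6, Ddc and Nrg2, and both were listed there for their measured difference among the animals labelled female. Ddc, which makes dopamine from its precursor, had an intronic region (chr14:91928406-91928714) called in 1 library of each group, and among libraries labelled female in 0 CON, 0 PF and 1 PAE. Nrg2, a growth factor of the neuregulin family, had an intronic region (chr18:28855652-28856037) called in 2 CON, 6 PF and 6 PAE libraries, with heights of 0.491 ± 0.140, 0.730 ± 0.341 and 0.587 ± 0.183 (SD, n = 10 each). Among libraries labelled female it was called in 0 of 5 CON, 4 of 5 PF and 4 of 5 PAE, and among those labelled male in 2 of 5 of each group. The region was chosen on its difference among libraries labelled female, and no test is given for either gene. Positions of the other 11 genes were not used here.

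In the order of protein-coding genes on the reference assembly GRCr8, Drd4 lies between Sct, which encodes the gut hormone secretin, and Deaf1, a transcription factor. Cdhr5, Irf7, an interferon regulatory factor, and Phrf1 follow beyond Sct, and Tmem80, Eps8l2 and Taldo1, an enzyme of the pentose phosphate pathway, beyond Deaf1. Coordinates of that assembly were not converted to Rn6 here, so the regions described above were not assigned to these genes. The RefSeq promoter of Drd4, from 250 bases before to 50 after the gene's start (GRCr8, chr1:205825687-205825986, plus strand), is shown because methylation falls on its CG pairs, which are in capitals:

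Drd4: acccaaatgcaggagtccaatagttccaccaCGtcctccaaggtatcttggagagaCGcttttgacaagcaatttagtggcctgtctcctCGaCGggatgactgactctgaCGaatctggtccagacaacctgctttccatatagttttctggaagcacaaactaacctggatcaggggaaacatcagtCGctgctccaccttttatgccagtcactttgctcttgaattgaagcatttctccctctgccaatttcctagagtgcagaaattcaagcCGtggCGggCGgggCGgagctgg

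It holds 10 CG pairs, of which 4 lie in the last 50 bases, after the start, and its GC content is 50.3%. The median over 33469 rat promoters of this length was 7 CG pairs, and 61.0% had at most 10. The GC box GGGCGG, searched on both strands (CCGCCC on the other), occurs 2 times, starting at bases 284 and 289 and overlapping by 1 base, and 33.1% of the promoters hold at least 1 match. How much of this stretch lies within the 516 bp of the Drd4 site was not determined, since the assemblies differ.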

How the data were processed

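DNAm was measured by meDIP-seq in 30 libraries, grouped by the labels. The authors mapped reads with BWA to Rn6, filtered them with samtools and called peaks per library with MACS2, without a control, at a q-value of 0.05. The version is 2.1.4 per the file headers, and the study's methods name another. The deposited signal of a peak is its pileup, unscaled, and the deposited −log10 q-value and fold enrichment ratio are the caller's. Start, end and summit positions are as deposited. The study's own read counts and tests were not used here.

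Peaks were merged over libraries and pileups scaled per 1000000 filtered fragments, with a floor of 0.438, the highest of the libraries' lowest peaks. Log2 heights of 352026 autosomal regions called in at least 3 libraries were fitted with limma 3.58.1 (R 4.3.3, trended variance; group, labelled sex, lane), with Benjamini-Hochberg adjustment over all of them. Python 3.11.15, numpy 2.4.6 and pandas 2.3.3 were used. The Drd4 site was given no group test. Members and lists were chosen with earlier results of these data known. Named regions were the 5 nearest on each side, those at an unadjusted p under 0.05, the 3 highest medians, and the 3 and 5 most like the site. Alternatives covered lane, sex, floor, scaling, peak threshold, overlap, minimum of libraries, litter and each library left out, and, added after seeing the data, the number of peaks, the chromosome Y pattern and litter as a fixed block for labelled sex, and all alternatives for PAE minus PF at the site.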

Additional observations from a re-analysis of the deposited data

Results flagged for a closer look

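In some groups 1 library stood apart from the rest, by a gap to the nearest value that was large against the range of the group. Of 37 groups checked, 14 showed this, where chance gives about 1 in 20. Many of the values lie at the floor, so that a single peak is enough to stand apart. Their part in the results was not tested beyond leaving out each library.

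At the Drd4 site, PAE replicate 2 had a height of 1.36 while the other PAE libraries, and the other 4 labelled female among them, were at the floor of 0.438. The same library had the only PAE peak in the region at 214283396 (0.749) and in that at 214184728 (0.681). PAE replicate 10 had the only PAE peak at 214290010 (0.788), and stood at 1.36 at 214270559, where the next highest PAE value was 0.875. PAE replicate 1 was highest at 214301985 (0.754) and at 214341210 (0.981), and CON replicate 8 had the only CON peak at 214341210 (0.573).

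PF replicate 4 stood apart at 214283396 (1.03, next 0.586) and at 214184728 (0.716, next 0.583), PF replicate 5 at 214290010 (0.991, next 0.658) and PF replicate 7 at 214301985 (0.583, next 0.495). CON replicate 1 reached 1.04 at 214301985, where the next CON value was 0.725.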

How the results depend on the processing

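The Drd4 site was chosen on its differences from CON in these libraries, so the steadiness of its values is a description and no support. The log2 differences between groups fitted at the site kept their sign under all alternatives run. They moved by more than the spread within groups in 1 of them, where libraries without a peak were set to 0 with a pseudocount of 0.1, which gave −2.82 for PAE minus CON, −1.51 for PF minus CON and −1.31 for PAE minus PF because that floor is lower. With each library left out in turn they ranged from −1.19 to −0.92, from −0.93 to −0.63 and from −0.43 to −0.19. The groups could not be compared within dams, since each dam belongs to 1 group; a random effect of litter moved no count of regions by more than 1.5 times. The labelled sexes were compared within dams with litter as a fixed block, added after seeing the data, where the difference at the site was −0.06 (unadjusted p = 0.758 by limma) and 0 regions of the locus had an unadjusted p under 0.05 for labelled sex by group.

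The single autosomal region at an FDR of 0.05 between PAE and CON became 0 without lane, with the number of peaks as a covariate, with quantile normalization, with the pseudocount, with peaks covering at least 50% of a region, with regions called in at least 1 library, and without any 1 of 23 libraries (range 0 to 1), with 17002 to 29815 regions at an unadjusted p under 0.05 by limma over all alternatives. Between PF and CON, the 2 regions of the locus at an unadjusted p under 0.05 became 1 without lane, with the chromosome Y pattern and with peaks at a q-value under 0.01, 0 with quantile normalization and with median ratio scaling, and 4 with the pseudocount. Leaving out 1 library gave 1 to 4, a move of over 1.5 times for 16 libraries, with 4 without CON replicate 4. For PAE versus PF it gave 1 to 3, with 1 without any 1 of 8 libraries, and for labelled sex by group 0 to 1, with 1 without CON replicate 5 or PF replicate 4. The PAE versus CON count stayed within 3 to 6.

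The labelled sex difference at the site changed sign, near 0, to 0.0178 with the number of peaks, 0.0224 with median ratio scaling, 0.0520 with quantile normalization and 0.0025 with the pseudocount, and was 0.57 with the chromosome Y pattern. Leaving out 1 library gave −0.103 to 0.0555. Causes were not tested. Depth limits the site, where the floor stands for 5.06 to 7.26 fragments and the peaks for 7 to 23.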
